A study of Mus musculus with 14 samples.

Results

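De novo lipogenesis, the making of fatty acids from acetyl-CoA, was followed in mouse liver through 10 genes taken by symbol from the 25212 genes of the count table. They were the regulators Srebf1, Mlxipl and Thrsp and the enzyme genes Acly, Acaca, Acacb, Fasn, Me1, Elovl6 and Scd1, and all 10 were measured in all 14 livers. The livers came from male C57BL/6 mice made obese by a high-fat diet (60% of calories from fat) that began at 6 weeks of age and ran for 12 weeks before surgery, and the operated mice were sampled 8 weeks after surgery. The DIO group (diet-induced obesity) held 5 livers of mice without an operation. The GB-IL group held 4 livers of mice whose gallbladder had been joined to the ileum after ligation of the common bile duct, so that bile entered the gut far downstream. The RYGB group held 5 livers of mice with a Roux-en-Y gastric bypass. All groups stayed on the high-fat diet, 1 library was made per liver, and livers of sham-operated, pair-fed or lean mice were not analysed here. The comparisons asked how far each operation, set against obese controls, was accompanied by a different level of the lipogenic mRNAs.

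The lipogenic programme of the liver runs from 2 transcription factors to a short chain of enzymes. Srebf1 encodes SREBP-1, whose active fragment is released from membranes under insulin, and Mlxipl encodes ChREBP, which responds to sugar metabolites inside the hepatocyte. Both act on genes for the enzymes that make cytosolic acetyl-CoA, turn it into malonyl-CoA, build palmitate with NADPH, and then lengthen and desaturate it. The mRNAs are known for swinging with feeding, with insulin and with the time of day, and neither the feeding state nor the hour at which these livers were taken is given in the sources used here.

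Some libraries stood apart, and the results below are given with and without them where they depend on them. By the root mean square difference of log2 CPM over 7999 well-covered genes, GB-IL liver 4 lay nearest to DIO liver 1 (0.366) and farther from any GB-IL liver (0.751 or more), whereas GB-IL livers 1 and 2 were nearest to each other (0.809) and at least 1.15 from every DIO liver. GB-IL liver 1 also held 1292 CPM of a 7-gene list for exocrine pancreas and 1171 CPM of a 6-gene list for muscle, against at most 2.44 and 3.17 CPM in the other 13 livers. A 6-gene neutrophil list summed to 335 CPM in GB-IL liver 3 and to 118 CPM in RYGB liver 5, and a macrophage list of 8 genes summed to between 639 and 1820 CPM in GB-IL and between 308 and 522 CPM in DIO. Not every macrophage gene was higher. Adgre1 measured 6.71 and 13.8 CPM in GB-IL livers 1 and 2, below the DIO range of 14.6 to 38.0 CPM. The hepatocyte list of 10 genes, led by Alb, was abundant in every liver (118513 to 178803 CPM). Its sum hides members that moved apart in GB-IL. Alb spanned 54004 to 95846 CPM in GB-IL and 93273 to 103456 CPM in DIO. Ttr spanned 1499 to 6239 CPM in GB-IL and 6028 to 9035 CPM in DIO, while Fgb spanned 3108 to 19458 and 3261 to 4869 CPM. Libraries held 18223135 to 28656631 counts in all. In whole liver, fewer cells of a type and less RNA per cell cannot be told apart.

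For 9 of the 10 genes RefSeq gave at least 1 transcription start in GRCm38.p6. The 250 bases upstream of a start are shown for Thrsp, Mlxipl and Fasn. Of the regulators, Thrsp had the largest difference from DIO after each operation and Mlxipl the next largest. Fasn is the enzyme against which the others are set below. Each window is written 5′ to 3′ on the strand of its gene. Capitals mark CCAAT or its reverse complement, the box bound by NF-Y, and CACGTG, the E-box core that can be bound by USF and, in pairs, by ChREBP. Both strands were searched, and a CCAAT in 1 direction may overlap one in the other.
Thrsp, chr7:97417551-97417800, minus strand: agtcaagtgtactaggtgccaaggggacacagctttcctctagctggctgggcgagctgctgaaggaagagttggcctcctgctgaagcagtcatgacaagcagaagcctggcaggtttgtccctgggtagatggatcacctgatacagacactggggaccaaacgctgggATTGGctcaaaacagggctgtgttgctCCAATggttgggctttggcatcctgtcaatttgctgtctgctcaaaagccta
Mlxipl, chr5:135089640-135089889, plus strand: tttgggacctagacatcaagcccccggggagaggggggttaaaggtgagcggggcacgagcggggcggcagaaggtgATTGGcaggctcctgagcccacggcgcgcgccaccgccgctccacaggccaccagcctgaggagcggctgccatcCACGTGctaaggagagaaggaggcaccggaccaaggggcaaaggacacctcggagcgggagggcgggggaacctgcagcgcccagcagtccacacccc
Fasn, chr11:120824548-120824797, minus strand: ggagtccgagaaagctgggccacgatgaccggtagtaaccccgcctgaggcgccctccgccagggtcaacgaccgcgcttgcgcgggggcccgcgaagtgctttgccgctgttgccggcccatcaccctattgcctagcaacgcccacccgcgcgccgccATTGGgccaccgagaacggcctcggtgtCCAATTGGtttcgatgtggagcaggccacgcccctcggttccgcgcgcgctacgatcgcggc
The Fasn window held CCAAT in 3 places, of which 2 overlapped in opposite directions, and the Thrsp window held it in 2 places. Of the 32851 windows of this length and position in the RefSeq table, 33.8% held CCAAT on either strand, 6.02% held CACGTG and 1.05% held TCACNCCAC, the letters searched for a sterol regulatory element. Among the 13 windows of the 9 genes, CACGTG occurred in 1, the Mlxipl window shown, and TCACNCCAC occurred in 1, which lies upstream of a second Mlxipl start (chromosome 5, 135106641 to 135106890). CCAAT also occurred in windows of Srebf1, Acacb and Me1. The only Acaca and Acacb windows, starting at 84195188 and 114165268, lay inside loci annotated from 84129672 and 114146535. For these genes the bases upstream of the annotated locus were not searched.

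Levels between genes were compared per kilobase of annotated exon, on the CPM per kb scale in DIO. Scd1, the desaturase that turns stearate into oleate, was by far the most abundant, with 1025 ± 758 CPM per kb (SD, n = 5), and stood at percentile 99.6 of the 14115 tested genes that had a length. Thrsp followed with a level of 199.7 ± 107 CPM per kb. Me1 (68.5 ± 22.4 CPM per kb), Acly (54.0 ± 13.1), Mlxipl (51.1 ± 15.3), Srebf1 (40.7 ± 19.1) and Fasn (37.0 ± 15.2) followed in that order, and neighbours differed by less than the larger of their SDs. Elovl6 (14.1 ± 1.12 CPM per kb), Acacb (8.44 ± 1.58) and Acaca (6.84 ± 1.36) were the lowest, and the last 2 overlapped. Exon lengths were summed over all annotated isoforms, which lowers the level of genes with many exons such as Acaca.

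The livers also differed in how steady these mRNAs were within a group. Scd1 had a fitted dispersion at percentile 99.2 of the 14252 genes tested, and its CPM ran from 71.0 to 9532 within GB-IL, a 134-fold range. Thrsp (percentile 96.3), Me1 (94.4) and Elovl6 (91.2) were among the more variable genes as well, whereas Acaca (43.0) was not. Elovl6 was nevertheless the steadiest member within DIO, where its coefficient of variation was 7.93%. The plot of CPM by liver shows this spread.

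**Figure D1:**
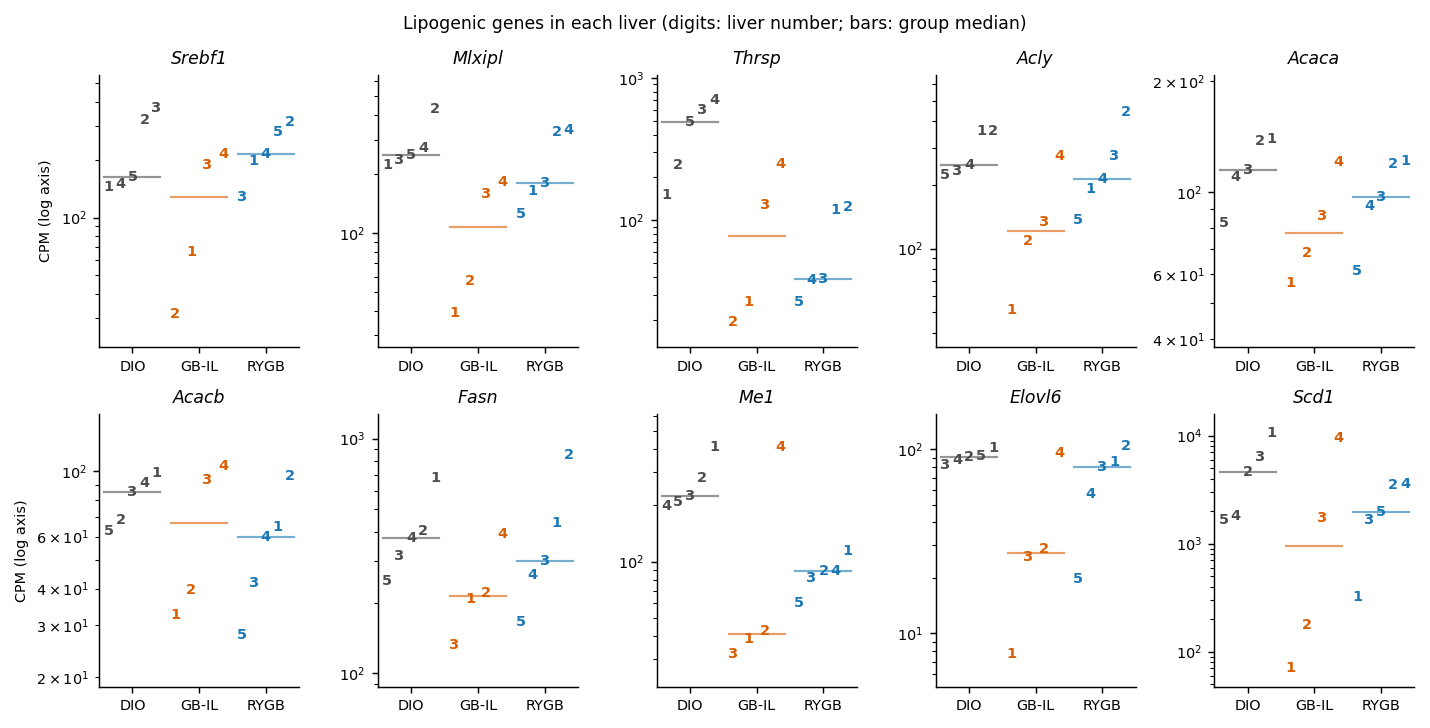
CPM of the 10 lipogenic genes on log axes by group, each digit being 1 liver (its number) and each bar the group median. GB-IL liver 4 is the highest GB-IL liver for all 10 genes, and RYGB liver 5 is the lowest RYGB liver for 8 of 10.

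After GB-IL, all 10 genes had a lower level than in DIO, with a median log2 fold change of -0.94, against 0.04 over all genes tested. None of the 10 passed an FDR of 0.05 in edgeR's quasi-likelihood test. That test called 3.26% of all 14252 genes, 449 as higher and 16 as lower. At an unadjusted p under 0.05, 4 of the 10 were lower (Mlxipl, Thrsp, Acly and Elovl6), against 6.43% of all genes lower at that level. DESeq2 called 2 as lower (Mlxipl and Thrsp, against 1.3% of all genes), edgeR's exact test 1 (Mlxipl, against 0.681%) and limma's voom with quality weights 1 (Me1, against 0.554%), while DESeq2 gave Me1 no adjusted p in any comparison. GB-IL livers 1 and 2 lay below every DIO liver for all 10 genes and GB-IL liver 3 for 6, whereas GB-IL liver 4 lay within the DIO range for 7, above it for 2 and below it for 1. Without GB-IL liver 4, 6 of the 10 passed the FDR as lower (Mlxipl, Thrsp, Acly, Acaca, Me1 and Elovl6), where 24.6% of all genes passed and 9.27% passed as lower. Without both liver 1 and liver 4, Me1 and Elovl6 passed, where 3.44% of all genes passed as lower. A list of 8 fasting-response genes summed to 16554 and 10024 CPM in GB-IL livers 1 and 2, to 5875 and 7731 CPM in livers 3 and 4, and to between 5881 and 8753 CPM in DIO, and its part in these levels was not tested.

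Mlxipl, which encodes ChREBP (ENSMUSG00000005373, chromosome 5, 135089890 to 135138382 on the plus strand of GRCm38), was the only member whose GB-IL and DIO livers did not overlap, a pattern that 1.51% of all genes showed in this direction. It measured 39.0, 56.9, 159 and 182 CPM in GB-IL livers 1 to 4, and 222, 431, 238, 272 and 251 CPM in DIO livers 1 to 5. Every GB-IL liver was below the lowest DIO liver, livers 1 and 2 by the most. Its log2 fold change was -1.37 (SE 0.44), 2.59-fold lower, with an adjusted p of 0.0962. In RYGB it measured 164, 329, 180, 335 and 125.9 CPM, which overlapped with DIO (log2 fold change -0.32, SE 0.41, adjusted p = 0.859).

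Srebf1, which encodes SREBP-1 (ENSMUSG00000020538, chromosome 11, 60199089 to 60222581, minus strand), measured 66.5, 31.6, 188 and 215 CPM in GB-IL against 144, 321, 370, 149 and 163 CPM in DIO. GB-IL livers 1 and 2 were low and livers 3 and 4 lay inside the DIO range. The log2 fold change was -0.87 (SE 0.49, adjusted p = 0.287). In RYGB the level was 197, 314, 128, 213 and 280 CPM, with a log2 fold change of -0.02 whose 95% interval ran from -0.99 to 0.95. The table gives 1 count per gene, so the SREBP-1a and SREBP-1c transcripts, which start at different first exons, were counted together, and exons of Rai1 on the opposite strand overlap those of Srebf1.

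Thrsp encodes Spot 14, a small nuclear and cytosolic protein that accompanies lipogenesis and answers to thyroid hormone and carbohydrate (ENSMUSG00000035686, chromosome 7, 97412938 to 97417730, minus strand). Its level was 150, 245, 593, 705 and 493 CPM in DIO livers 1 to 5. It was 118, 123, 38.8, 37.8 and 26.8 CPM in RYGB livers 1 to 5, all below the lowest DIO liver, a pattern that 1.66% of all genes showed in this direction. In GB-IL it was 26.8, 19.1, 127 and 249 CPM, with 3 of 4 livers below all DIO livers. The log2 fold change was -2.66 in RYGB (SE 0.70), 6.34-fold lower, and -2.05 in GB-IL (SE 0.75), 4.14-fold lower. The adjusted p was 0.348 in RYGB and 0.130 in GB-IL, and both were the largest differences among the 10 genes in their comparison. In RYGB, Thrsp passed the FDR in DESeq2, edgeR's exact test and voom. Its RYGB value stayed between -2.98 and -2.42 with each liver left out in turn.

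Acly, Acaca and Acacb supply and activate the carbon. Acly, which splits cytosolic citrate into acetyl-CoA (ENSMUSG00000020917, chromosome 11, 100476353 to 100528000, minus strand), measured 51.2, 108, 134 and 274 CPM in GB-IL and 360, 361, 233, 249 and 223 CPM in DIO. The first 3 GB-IL livers lay below every DIO liver, and the log2 fold change was -1.01 (SE 0.42, adjusted p = 0.174). RYGB livers spanned 137 to 443 CPM and enclosed the DIO range (log2 fold change -0.18, SE 0.39). Acaca (ENSMUSG00000020532, chromosome 11, 84129672 to 84401651, plus strand), the cytosolic acetyl-CoA carboxylase that makes malonyl-CoA for synthesis, differed from DIO by -0.49 in GB-IL (log2 fold change, SE 0.25, adjusted p = 0.254) and by -0.25 in RYGB (SE 0.24, adjusted p = 0.795). Acacb (ENSMUSG00000042010, chromosome 5, 114146535 to 114250761, plus strand) encodes the mitochondrial carboxylase whose malonyl-CoA holds back fatty acid entry for oxidation. In GB-IL its log2 fold change was -0.27 (SE 0.37) and in RYGB -0.49 (SE 0.35), with adjusted p of 0.665 and 0.723 in edgeR, and the sign in GB-IL turned in voom. The Acacb range in GB-IL, 32.4 to 105 CPM, extended on both sides of the DIO range of 62.7 to 98.8 CPM.

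Fasn encodes fatty acid synthase, which builds palmitate from malonyl-CoA (ENSMUSG00000025153, chromosome 11, 120805846 to 120824547, minus strand). It measured 207, 220, 132 and 394 CPM in GB-IL, 682, 404, 315, 379 and 247 CPM in DIO, and 437, 851, 301, 263 and 166 CPM in RYGB. The first 3 GB-IL livers were below all DIO livers, and RYGB held both the highest and the second-lowest Fasn level of all livers. In GB-IL the log2 fold change was -0.77 (SE 0.45, adjusted p = 0.303) and in RYGB -0.01, with a 95% interval from -0.89 to 0.88. The sign in RYGB turned under upper quartile scaling, in voom and under both other filters, so no direction is read there.

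Me1 encodes malic enzyme, which yields cytosolic NADPH for the synthase (ENSMUSG00000032418, chromosome 9, 86581371 to 86695953, minus strand). DIO livers 1 to 5 measured 407, 280, 225, 198 and 208 CPM, and RYGB livers 1 to 5 measured 114, 88.5, 81.8, 89.2 and 59.7 CPM. All RYGB livers were below all DIO livers, with a log2 fold change of -1.60 (SE 0.60), 3.04-fold lower, and an adjusted p of 0.506. In GB-IL, livers 1 to 3 measured 38.8, 42.8 and 32.1 CPM, below every RYGB liver, and liver 4 measured 410 CPM, above every DIO liver. This liver widened the spread that edgeR estimated for Me1. With GB-IL liver 4 left out, the Me1 log2 fold change in RYGB was again -1.60, its SE was 0.23 and its adjusted p was 0.0281, in a comparison where 0.0207% of all genes were called lower. It passed as well without GB-IL livers 1 and 4 (adjusted p = 0.0385), where 0.0339% of all genes were called lower. Me1 also passed in RYGB when only the 2 compared groups were fitted and in voom, and in GB-IL without liver 4 its log2 fold change was -2.81 (SE 0.29, adjusted p = 0.000184), 7.0-fold lower. GB-IL liver 4 held 1.88 CPM of Adipoq, 1.34 CPM of Lep and 0.88 CPM of Plin1, genes defining for fat cells, whereas no other liver exceeded 0.196 CPM of any of them. The adipocyte list of 8 genes summed to 3665 CPM in that liver, 26.7 to 125 CPM in the other GB-IL livers, 2160 to 3004 CPM in DIO and 344 to 2362 CPM in RYGB, and Car3, which hepatocytes also express, made up 3560 CPM of the sum in liver 4. Their part in the Me1 level of that liver was not tested.

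Elovl6 encodes the elongase that lengthens palmitate to stearate (ENSMUSG00000041220, chromosome 3, 129532355 to 129638495, plus strand). It measured 7.67, 28.7, 26.1 and 95.8 CPM in GB-IL against 102, 91.2, 82.1, 87.4 and 91.6 CPM in DIO. The first 3 GB-IL livers were far below the narrow DIO range and the fourth was inside it, with a log2 fold change of -1.20 (SE 0.55, adjusted p = 0.210). Without GB-IL liver 4 it was -2.13 (SE 0.49, adjusted p = 0.00818). In RYGB, livers 1 to 3 measured 85.4, 104 and 80.4 CPM and livers 4 and 5 measured 57.3 and 19.6 CPM, with a log2 fold change of -0.39 (SE 0.51).

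Scd1 (ENSMUSG00000037071, chromosome 19, 44394455 to 44407879, minus strand) measured 71.0, 175, 1744 and 9532 CPM in GB-IL livers 1 to 4. DIO livers measured 10613, 4620, 6385, 1803 and 1656 CPM, and RYGB livers measured 324, 3515, 1640, 3560 and 1954 CPM. GB-IL livers 1 and 2 and RYGB liver 1 were far below all others, and the remaining livers overlapped. In GB-IL the log2 fold change was -0.80 (SE 1.06, 95% interval -3.06 to 1.46) and in RYGB -1.19 (SE 1.00, 95% interval -3.32 to 0.94), so that even differences of several-fold were not detectable at this spread. Scd1 lies beside its close relatives Scd2, Scd3 and Scd4, between which reads may be split or dropped, and its count is uncertain to that extent.

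**Figure D2:**
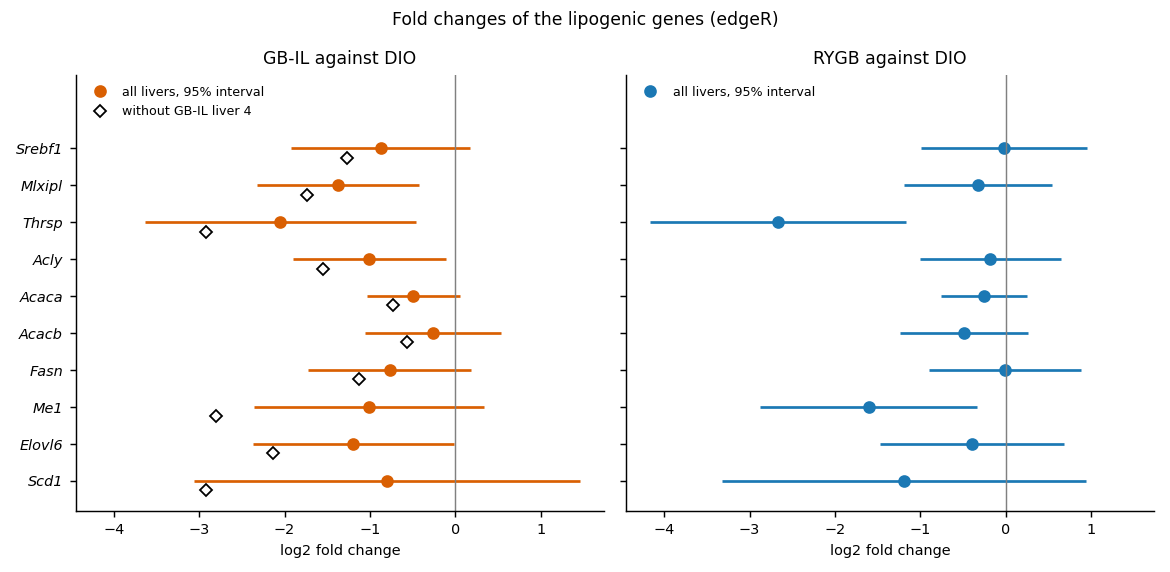
Log2 fold change of each lipogenic gene against DIO in edgeR with its 95% interval, for GB-IL on the left and RYGB on the right. Open diamonds give GB-IL without its liver 4, and all of them lie farther below 0 than the estimates from all livers, for example -2.81 against -1.01 for Me1.

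After RYGB, then, the members did not share one level of difference. All 10 estimates were below 0, with a median of -0.36 against 0.01 over all genes, but those of Srebf1 and Fasn were close to 0 and changed sign under upper quartile scaling and in voom, and that of Acly changed sign in voom. None of the 10 passed the FDR in the quasi-likelihood test, in which 0% of all genes passed. At an unadjusted p under 0.05, Thrsp and Me1 were lower, 2 of 10 against 3.36% of all genes, and the same 2 were the only members whose RYGB and DIO livers did not overlap. DESeq2 and edgeR's exact test called Thrsp lower, as they did 0.232% and 0.126% of all genes, and voom called Thrsp and Me1, as it did 5.77%. RYGB liver 5 was below every DIO liver for 8 genes, RYGB liver 3 for 7, and RYGB liver 2 for 2. Most RYGB livers also differed from most DIO livers in the clock genes Arntl and Dbp, which were chosen after their values were seen. Arntl measured 12.7 to 26.0 CPM in RYGB livers 2 to 5, 1.98 CPM in RYGB liver 1 and 1.3 to 4.52 CPM in DIO livers 2 to 5, with 15.3 CPM in DIO liver 1. Dbp, which runs in the opposite phase, measured 2.69 to 35.3 CPM in RYGB livers 2 to 5 and 49.1 to 108 CPM in DIO livers 2 to 5, with 97.5 CPM in RYGB liver 1 and 9.34 CPM in DIO liver 1. The 11-gene clock list summed to between 282 and 574 CPM in RYGB and between 310.2 and 790.2 CPM in DIO. Its members did not all differ in this way. Dbp had a lower median in RYGB than in DIO (14.9 against 73.5 CPM) and Nr1d1 a higher one (80.9 against 51.6 CPM). Per2 spanned 7.29 to 42.3 CPM in RYGB and 10.4 to 36.8 CPM in DIO. The part of the clock genes in the lipogenic levels was not tested.

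Between the 2 operations none of the 10 genes passed the FDR in edgeR's quasi-likelihood test, as was so for all genes tested (0%). DESeq2, edgeR's exact test and voom called none of them either, and called 1.34%, 0.793% and 0.0281% of all genes lower in GB-IL. For no member did the livers of the 2 operations separate, which 1.57% of all genes did with GB-IL lower. At an unadjusted p under 0.05 only Mlxipl was lower in GB-IL (log2 fold change -1.05, SE 0.44, adjusted p = 0.189), against 6.77% of all genes. The estimates were below 0 for 6 genes and above 0 for Thrsp, Acacb, Me1 and Scd1. The signs of these 4 depended on single livers. Without GB-IL liver 4, Mlxipl, Acly, Me1 and Elovl6 were called lower in GB-IL than in RYGB, 4 of 10 against 8.09% of all genes. Without GB-IL livers 1 and 4, Me1 alone of the 10 was called lower, against 2.75% of all genes lower. The Me1 log2 fold change without liver 4 was -1.20 (SE 0.27, adjusted p = 0.0114) in place of 0.59.

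**Figure D3:**
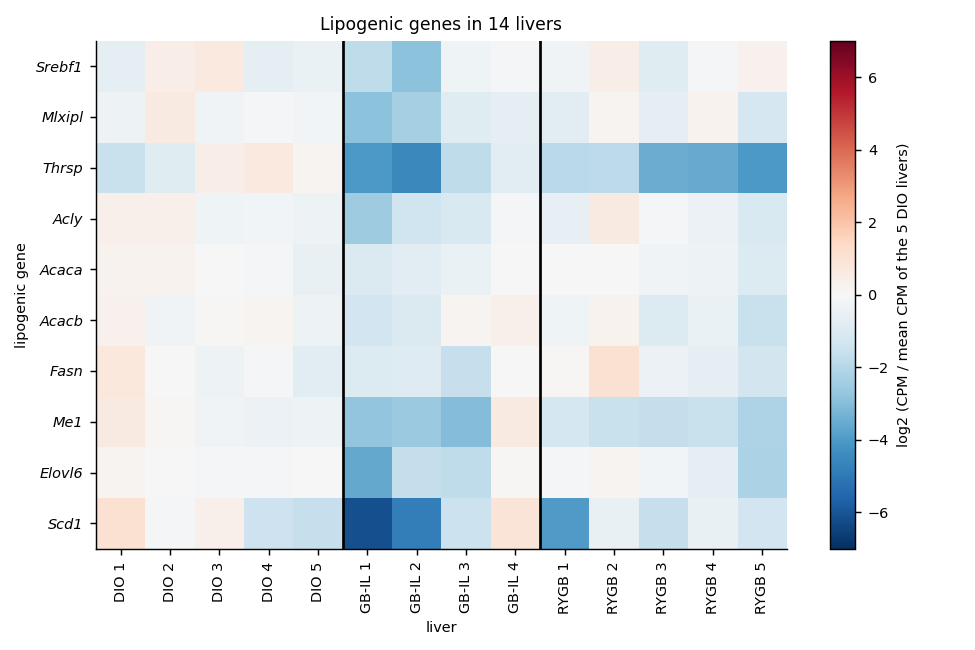
Log2 of CPM over the mean CPM of the 5 DIO livers, for the 10 lipogenic genes in the 14 livers, with blue for lower and red for higher. GB-IL livers 1 and 2 are blue for all 10 lipogenic genes, GB-IL liver 4 resembles DIO, and Thrsp and Me1 are blue in every RYGB liver.

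Ratios of 2 genes within the same liver do not depend on library size. The count ratio of Scd1 to Fasn was 0.343 and 0.795 in GB-IL livers 1 and 2 and 0.741 in RYGB liver 1, and between 4.13 and 24.2 in the other 11 livers. The group difference of its log2 was -1.75 in GB-IL (p = 0.302 by an exact permutation test, two-sided, and adjusted p = 0.517 over 12 tests) and -1.09 in RYGB (exact permutation p = 0.230, adjusted p = 0.517). The ratio of Acacb to Acaca, the carboxylase guarding oxidation over the one feeding synthesis, differed from DIO by 0.10 on the log2 scale in GB-IL and by -0.32 in RYGB, and that of Mlxipl to Srebf1 by -0.48 and -0.42. For Elovl6 to Fasn the log2 differences were -0.94 and -0.44. In none of the 12 comparisons of 4 ratios was the adjusted p by exact permutation below 0.517, while the smallest p that 5 against 5 livers allow is 0.00794 and that of 4 against 5 is 0.0159.

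Across the 14 livers the 10 genes tended to be high or low together. All 45 pairwise correlations of log2 CPM were above 0, from 0.30 to 0.93 with a median of 0.68, and the median was 0.63 on deviations from the group means. The correlation with Fasn, tested by 100000 permutations and adjusted over 9 genes, was strongest for Acaca (Pearson r = 0.78, permutation p = 0.0009, adjusted p = 0.0081, and Spearman rho = 0.90, permutation p = 5e-05, adjusted p = 0.00045). Acly (r = 0.75, adjusted permutation p = 0.0081, and rho = 0.80, adjusted permutation p = 0.00288) and Elovl6 (r = 0.72, adjusted permutation p = 0.0105, and rho = 0.85, adjusted permutation p = 0.000765) came next, then Me1 (r = 0.63, adjusted permutation p = 0.0356, and rho = 0.69, adjusted permutation p = 0.0194). Srebf1 was the member least correlated with Fasn (r = 0.30, adjusted permutation p = 0.306, and rho = 0.32, adjusted permutation p = 0.268). For Mlxipl (r = 0.50, rho = 0.57), Acacb (r = 0.55, rho = 0.63), Scd1 (r = 0.42, rho = 0.49) and Thrsp (r = 0.37, rho = 0.41) the adjusted permutation p of Pearson's r was above 0.05, from 0.0704 to 0.220. Of these 4, Acacb had an adjusted permutation p of Spearman's rho under 0.05 (0.0330), and the others had 0.0523 to 0.166. With RYGB liver 2 and GB-IL liver 3, the livers farthest from the Fasn median, left out, r was 0.92 for Acaca, 0.71 for Acly, 0.73 for Elovl6, 0.78 for Me1, 0.82 for Acacb and 0.26 for Srebf1. On deviations from the group means, r was 0.74 for Acaca, 0.67 for Acly, 0.63 for Elovl6, 0.61 for Me1 and 0.05 for Srebf1. All genes of a liver share 1 library and its depth, and GB-IL livers 1 and 2 stood apart from the rest. The permutations ran over all 14 livers regardless of group, so their p-values also take in differences between groups. The correlations of deviations were not tested.

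**Figure D4:**
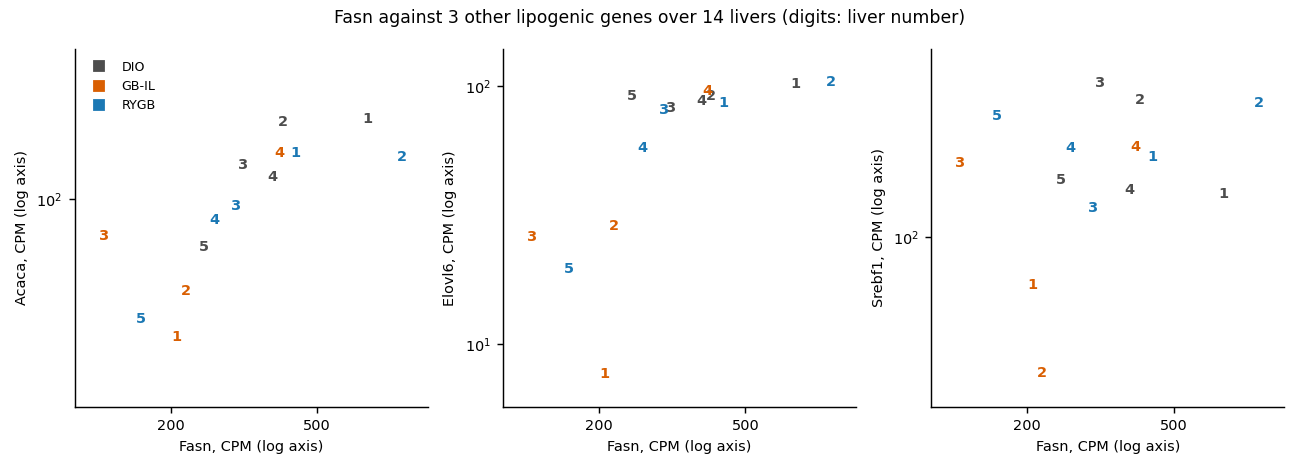
Fasn CPM on the x axis against Acaca, Elovl6 and Srebf1 CPM on the y axes (log axes), each digit being 1 liver and each colour a group. Livers with more Fasn had more Acaca and Elovl6 (r = 0.78 and 0.72), and the points for Srebf1 scatter more widely (r = 0.30).

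Among the 12696 genes with a mean of at least 1 CPM, those whose log2 CPM ran closest to that of Fasn over the 14 livers were Ampd2 (Pearson r = 0.86), Mrps10 (0.81) and Slc25a1 (0.79), the last encoding the mitochondrial citrate carrier that feeds Acly. Closest to Srebf1 were Trim26 (0.93), RP24-289J12.1 (0.92) and Kank2 (0.91). Closest to Mlxipl were Col27a1 (0.98), the pseudogene Mup-ps13 (0.95) and Ganc (0.95). These are the highest of many correlations and are given as a description.

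The wider pathway was followed in 40 other genes in 7 lists. In GB-IL 1 of the 40 passed the FDR, Scd2, which encodes a stearoyl-CoA desaturase that is usually low in adult hepatocytes. Scd2 measured 20.6, 20.2, 12.98 and 8.71 CPM in GB-IL against 3.79 to 5.76 CPM in DIO. All 4 GB-IL livers were above all DIO livers, as for 2.67% of all genes, with a log2 fold change of 1.73 (SE 0.40, adjusted p = 0.0340), and 3.15% of all genes passed the FDR as higher. In RYGB, Scd2 was above all DIO livers as well, as were 1.87% of all genes, at 10.3, 7.55, 6.65, 6.95 and 26.8 CPM (log2 fold change 1.31, SE 0.38, adjusted p = 0.383). The macrophage list was highest in GB-IL livers 1 to 3 (1086 to 1820 CPM) and summed to 817 CPM in RYGB liver 1 and 634 CPM in RYGB liver 5, and the neutrophil list was highest in GB-IL livers 1 to 3 and RYGB liver 5 (38.9 to 335 CPM, against at most 6.75 CPM in the other livers). The macrophage genes did not move alike. Adgre1 measured 6.71, 13.8, 62.9 and 68.4 CPM in GB-IL livers 1 to 4, against 14.6 to 38.0 CPM in DIO. Clec4f measured 39.4, 156, 264 and 146 CPM in GB-IL against 125 to 196 CPM in DIO. Cd14 measured 460, 134, 54.4 and 5.78 CPM in GB-IL against 3.69 to 5.88 CPM in DIO. The part of the macrophage and neutrophil lists in the Scd2 level was not tested. The Scd2 call in GB-IL was lost without any 1 DIO liver, without GB-IL liver 1 or 2, when only the 2 compared groups were fitted, and with the replicate block.

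The sugar input list holds 7 genes of glucose and fructose uptake and breakdown. Its median log2 fold change was -1.09 in GB-IL and -0.36 in RYGB, and 0 of 7 genes passed the FDR in either by the quasi-likelihood test. At an unadjusted p under 0.05 there were 4 of 7 lower in GB-IL, against 6.43% of all genes, and 2 of 7 in RYGB, against 3.36%. DESeq2 called Khk and Pklr lower in GB-IL, as it did 1.3% of all genes. In RYGB, Gckr, Khk and Pklr lay below all DIO livers, a pattern of 1.66% of all genes. These 3 genes were picked after their values were seen. Khk, the ketohexokinase that starts fructose use, measured 365, 305, 209, 243 and 210 CPM in RYGB and 502, 412, 913, 716 and 687 CPM in DIO (log2 fold change -1.28, SE 0.37, adjusted p = 0.383). Pklr, the liver pyruvate kinase and a textbook target of ChREBP, measured 3.68, 6.44, 64.3 and 194 CPM in GB-IL, 167, 143, 90.7, 103 and 72.0 CPM in RYGB and 233 to 413 CPM in DIO. It was thus below all DIO livers after both operations, with log2 fold changes of -2.25 (SE 0.82, adjusted p = 0.130) and -1.47 (SE 0.74, adjusted p = 0.593). Without GB-IL liver 4, Gckr, Khk and Pklr passed the FDR as lower in GB-IL, as did 9.27% of all genes.

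The remaining lists held no gene past the FDR in edgeR's quasi-likelihood test of either operation against DIO. Other tests called G6pdx and Dgat2 in GB-IL. G6pdx of the NADPH list was higher (log2 fold change 1.00, SE 0.30, quasi-likelihood adjusted p = 0.0829) and was called by DESeq2, voom and edgeR's exact test. Dgat2 of the triglyceride list was lower (-0.94, SE 0.30, quasi-likelihood adjusted p = 0.0962) and was called by DESeq2, as were 1.3% of all genes. The SREBP processing list covers SCAP, the INSIG anchors and the proteases that release SREBPs. In it 5 of 6 estimates were above 0 in GB-IL and 6 of 6 in RYGB. Of all 14252 genes, 7563 and 7340 were above 0. In each comparison 1 of the 6 was higher at an unadjusted p under 0.05, against 16.7% and 5.35% of all genes. The smallest p in RYGB was that of Srebf2 (log2 fold change 0.76, SE 0.30, adjusted p = 0.515). Among 8 transcription partners the median was -0.10 in GB-IL and -0.17 in RYGB, where Usf2 had the smallest p (log2 fold change -0.30, SE 0.13, adjusted p = 0.551). In the NADPH list the smallest p in RYGB was that of Tkt (log2 fold change -0.45, SE 0.17, adjusted p = 0.497). In the acetyl-CoA list it was that of Acss2 (0.41, SE 0.42, adjusted p = 0.814), and in the triglyceride list that of Lpin1 (-1.61, SE 0.53, adjusted p = 0.446). Lpin1 was uneven within DIO, with 975 and 788 CPM in livers 4 and 5 and 136 to 333 CPM in the other 3. Between the operations 0 of 40 passed, and the smallest p of each list belonged to Mbtps1, Usf1, Gckr, Pgd, Mid1ip1, Dgat1 and Scd2. Their log2 fold changes of GB-IL over RYGB were -0.24 (SE 0.18), 0.63 (SE 0.21), -0.60 (SE 0.35), 0.52 (SE 0.18), -0.72 (SE 0.32), 0.75 (SE 0.25) and 0.42 (SE 0.39) in that order, with adjusted p from 0.137 to 0.514. At an unadjusted p under 0.05, 7 of the 40 differed between the operations, 5 higher and 2 lower in GB-IL (15.3% of all genes were higher at that level), and none was called by DESeq2, edgeR's exact test or voom. Pgd, which yields NADPH in the pentose phosphate pathway, was above all RYGB livers in all 4 GB-IL livers, as were 1.27% of all genes, but by little: the lowest GB-IL liver had 45.2 CPM and the highest RYGB liver 44.9 CPM.

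The median of sterol synthesis, the branch driven mainly by SREBP-2, lay on the other side of 0 from that of the lipogenic genes. In RYGB all 10 lipogenic estimates were below 0, with a median log2 fold change of -0.36. Those of Srebf1 and Fasn were close to 0, and these and that of Acly changed sign in other fits. All 14 sterol genes had estimates above 0 in RYGB, with a median of 1.47. None of the 14 passed the FDR in edgeR's quasi-likelihood test and 11 of 14 had an unadjusted p under 0.05, where 5.35% of all genes were higher at that level. Sqle, the squalene epoxidase, measured 177, 202, 134, 76.6 and 41.6 CPM in RYGB and 86.6, 22.1, 9.87, 24.8 and 18.5 CPM in DIO, so that 3 of 5 RYGB livers were above all DIO livers (log2 fold change 1.96, SE 0.56, adjusted p = 0.383). Idi1, the isopentenyl diphosphate isomerase, measured 457, 604, 457, 225 and 55.5 CPM in RYGB and 204, 86.2, 37.2, 67.1 and 56.0 CPM in DIO (log2 fold change 2.00, SE 0.58, adjusted p = 0.383). In GB-IL 13 of the 14 were above 0, with a median of 0.95, and 4 had an unadjusted p under 0.05 (16.7% of all genes were higher at that level). The plot of the lists sets these medians side by side. GB-IL and RYGB were each compared with the same 5 DIO livers, so the 2 comparisons are not independent of each other.

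**Figure D5:**
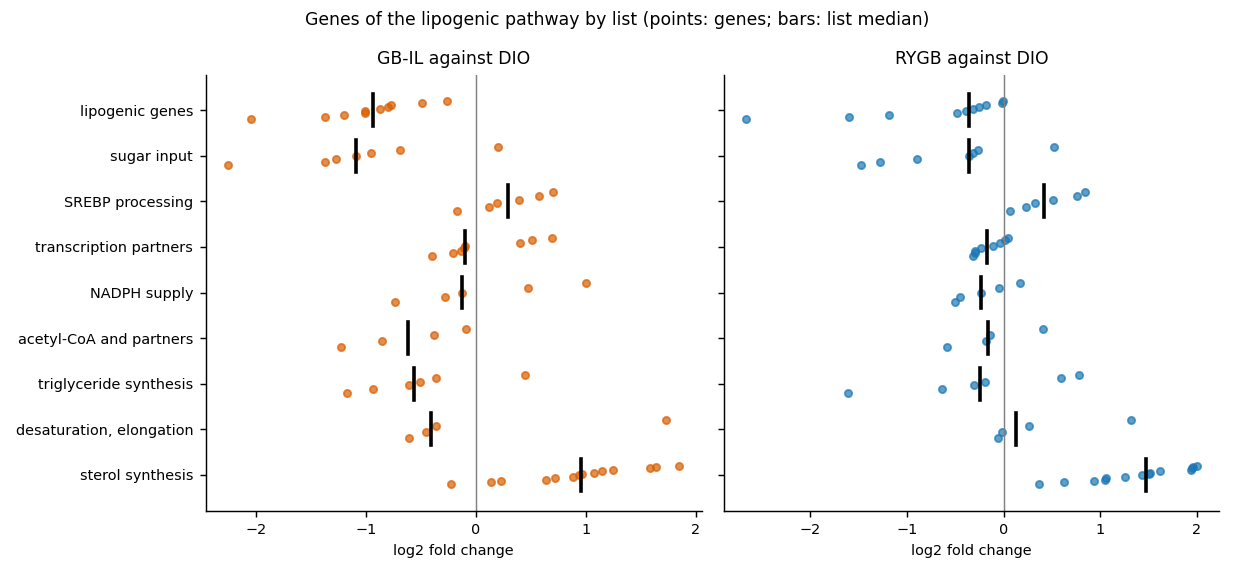
Log2 fold change against DIO of each gene of the lipogenic set, 7 pathway lists and the sterol synthesis list (points), with the list median as a bar, for GB-IL on the left and RYGB on the right. Medians are below 0 for the lipogenic genes (-0.94 and -0.36) and above 0 for sterol synthesis (0.95 and 1.47).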

How the data were processed

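RNA of 14 mouse livers was sequenced, 1 library per liver. The authors used TopHat 2 to align the reads to mm10 and HTSeq to count them by gene, and the deposited values are whole counts without normalization. The sources used here give no tool versions, annotation or strand setting, nor which liver was made with which of the 2 kits that the labels name. The members and all lists were chosen with earlier results of these data known.

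Counts were tested in R 4.3.3 with edgeR 4.0.16 (filterByExpr by group, TMM, quasi-likelihood test, 1 mean per group over all 14 livers, 14252 genes, Benjamini-Hochberg FDR of 0.05). CPM of the lipogenic, pathway and sterol genes are scaled by TMM, and log2 CPM carry a prior count of 2. CPM of the cell type, tissue, fasting-response and clock lists and of their genes are per total count, without TMM. Tried as alternatives were upper quartile and RLE scaling, DESeq2 1.42.0, limma 3.58.1 voom, edgeR's exact test, other filters, 2 groups only, a replicate block and each liver left out, and, chosen after seeing the data, GB-IL livers 1 and 4 both left out. Ratios of counts (0.5 added, or 2) were compared by exact permutation tests in Python 3.11.15 with numpy 2.4.6 and scipy 1.17.1. All tests run across genes were tested on simulated data. Positions and exon lengths came from GENCODE for GRCm38, promoters from RefSeq. The members were all named. Of each other list the gene past the FDR was named where 1 to 6 passed in a comparison, and otherwise the gene with the smallest p of each list, with the 2 smallest in RYGB for sterol synthesis. Of the sugar input list, a gene due under this rule is not reported here. Where nothing says that livers came from separate cages or days, the p-values measure the spread between these livers.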

Additional observations from a re-analysis of the deposited data

Results flagged for a closer look

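In 30 groups of livers (10 genes in 3 groups), 2 held a liver set apart from the rest of its group by Dixon's criterion, and chance sets apart about 1 group in 20. For Mlxipl in DIO, liver 2 measured 431 CPM and the gap to the next liver was 0.760 of the group's range. For Me1 in GB-IL, liver 4 measured 410 CPM and the gap was 0.972 of the range. In edgeR's quasi-likelihood test over all groups, Me1 was called after both operations without this liver and after neither with it, whereas voom called it after both with all livers.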

How the results depend on the processing

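Against the count of 0 of the 10 lipogenic genes past the FDR in GB-IL against DIO, DESeq2 gave 2, voom 1, edgeR's exact test 1 and the removal of GB-IL livers 1 and 4 gave 2. In RYGB against DIO, DESeq2 gave 1, voom 2, the exact test 1, the fit of 2 groups only 1 and the removal of GB-IL livers 1 and 4 gave 1. That removal also gave 1 in GB-IL against RYGB. Leaving out 1 liver at a time, the 3 counts ran from 0 to 6, 0 to 1 and 0 to 4, the highest always without GB-IL liver 4. Of the 40 pathway genes, 1 passed in GB-IL against DIO, 6 in DESeq2, 4 in voom, 3 in the exact test, 0 in the fit of 2 groups only and 9 without GB-IL livers 1 and 4, and from 0 to 16 with each liver left out. In RYGB against DIO, DESeq2 gave 1, voom 12 and the fit of 2 groups only 1 in place of 0. In GB-IL against RYGB, 4 passed without GB-IL livers 1 and 4 and from 0 to 11 with each liver left out. The cause of these differences between tools was not tested.

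The replicate numbers did not pair the livers. Over 13 same-numbered pairs the correlation of deviations ran from -0.38 to 0.38, with 2 over 0.1, and 1 of 14 livers correlated best with its own number. With the replicate number as a block, 0 lipogenic and 0 pathway genes passed in any comparison, and 1 of all genes passed in GB-IL against DIO in place of 465.

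The log2 fold change changed sign in these cases. For Srebf1 in RYGB against DIO it was 0.00362 under upper quartile scaling, 0.19 in voom and 0.0732 with the replicate block, and from -0.16 to 0.22 with each liver left out. For Fasn in the same comparison it was 0.0136 under upper quartile scaling, 0.18 in voom, 0.00439 without a filter and 0.00450 with a mean of at least 50 counts, and from -0.47 to 0.27 with each liver left out. Voom gave 0.0456 for Acly in RYGB against DIO and 0.0105 for Acacb in GB-IL against DIO. In GB-IL against RYGB, the block gave -0.10 for Thrsp, which ran from -0.26 to 0.95 with each liver left out, while Acacb ran from -0.0757 to 0.46. Me1 was -0.66 in voom, -0.23 with the block and -1.22 without GB-IL livers 1 and 4, and ran from -1.20 to 0.92. Scd1 was -0.70, -0.80 and -1.24 in the same 3 fits and ran from -1.73 to 0.78. The log2 ratio of Acacb to Acaca in GB-IL against DIO ran from -0.0861 to 0.23 with each liver left out. In GB-IL against RYGB that of Scd1 to Fasn ran from -1.66 to 0.39, that of Mlxipl to Srebf1 from -0.37 to 0.16 and that of Elovl6 to Fasn from -0.82 to 0.0799. In all, 669 of 720 recomputed fold changes kept their sign and their side of the FDR. Adding 2 counts in place of 0.5 changed no sign of a ratio. The effect of depth was not tested.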

Other observations

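Within the DIO group, which had no operation, DIO liver 1 held the lowest level of all 3 regulators and the highest level of 6 of the 7 enzyme genes. Its Srebf1, Mlxipl and Thrsp measured 144, 222 and 150 CPM, against 149 to 370, 238 to 431 and 245 to 705 CPM in the other DIO livers. Its Fasn measured 682 CPM against 247 to 404, its Me1 407 CPM against 198 to 280 and its Scd1 10613 CPM against 1656 to 6385. Acly, the exception, measured 360 CPM in DIO liver 1 and 361 CPM in DIO liver 2. DIO liver 1 was also the DIO liver with the most Arntl (15.3 CPM against 1.3 to 4.52) and the least Dbp (9.34 CPM against 49.1 to 108). This liver was picked after its values were seen, it is 1 animal, and no test was made.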
